A study of Setaria viridis with 26 samples.

Results

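A pair of genes named as transcription factors was described by where their edges lead in the co-expression network of *Setaria viridis* inflorescences. They are the INDETERMINATE DOMAIN (IDD) gene Sevir.5G208500 and the MYB gene Sevir.9G477500, 2 of the 25298 genes of the network. This is the network as deposited, which holds fewer genes and fewer modules than the paper states for it. They were chosen by their locus identifiers, after the network had shown that very few of their edges go to genes of their own module. The share of edges within the own module is therefore a selection criterion and not a finding, no numerical threshold was set for it, and it is given below as a description. Of the 25298 genes, 298 carry the module label lightgreen, among them the IDD gene, and 1313 carry the label pink, among them the MYB gene.

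The network was built by the authors from RNA-seq of hand-dissected, pooled inflorescence primordia of wild-type A10.1 plants. *S. viridis* is a small, undomesticated C4 grass used as a model for cereals. The series holds 12 wild-type RNA-seq samples, with 4 at 8 to 9 days after sowing (DAS), 4 at 10 to 11 DAS and 4 at 17 DAS, and the authors added wild-type samples of an earlier study. It also holds 12 RNA-seq samples of the *ful2* mutant, with 4 each at 9 to 10, 15 and 21 DAS, and 2 DNA samples of *ful2* seedlings, none of which entered the network. Every value below is therefore a property of wild-type development over many stages, and no replicate error can be given. In such bulk tissue a change in the number of cells of a type cannot be told apart from a change in RNA per cell.

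IDD proteins are plant transcription factors with C2H2 zinc fingers. The founding member, INDETERMINATE1 of maize, is required for the transition to flowering, and family members in Arabidopsis act in root patterning, gravitropism and gibberellin signalling. MYB proteins bind DNA through helix-turn-helix repeats and form a large family of plant regulators, with roles from cell identity to the circadian clock. In a co-expression network of this kind, an edge joins 2 genes with a weight, the topological overlap. The weight combines how closely their transcript levels vary together across samples with how far they share their other neighbours. It lies between 0 and 1. Modules, named by colours, are groups of genes that cluster by this measure.

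The deposited gene annotation was checked against these family names. The IDD gene carried 8 Gene Ontology (GO) terms, among them nucleic acid binding, zinc ion binding and regulation of transcription. Integral component of membrane and RNA phosphodiester bond hydrolysis were also among these terms. Its domain evidence was a C2H2 zinc finger profile. The IDD gene was not assigned the term for DNA-binding transcription factor activity. The MYB gene carried 11 terms, which included DNA binding, chromatin binding and transcription factor activity, but also translation and small ribosomal subunit. Its domain evidence was the homeodomain-like fold, to which MYB repeats belong, and its closest Arabidopsis gene was AT2G36960. Both signatures are found in wider groups of proteins than the IDD and MYB families, so the annotation alone does not establish the family names.

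The 43548751 listed edges have weights between 0.0200 and 0.393, with a median of 0.0412, and a pair that is not listed has an unknown weight below this lowest value. The median gene had 3069 edges, of which a median of 33.6% stayed within its own module. For 11431 genes (45.2%), more edges led to some other module than to the gene's own. A module label that differs from where most edges lead is thus common in this network. The count also depends on module size, since genes of a small module can have only few edges within it.

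The IDD gene had 3102 edges, which join it to 12.3% of the network. By number of edges it ranked 12467 of 25298 genes, close to the median gene. Its weights ranged from 0.0200 to 0.111 with a median of 0.0343 (quartiles 0.0255 and 0.0493). Only 21 edges (0.677%) went to lightgreen genes, which is 7.07% of the other genes of that module. Across lightgreen, the share of edges within the module had a median of 4.86% and ranged from 0.0616% to 22.7%. The share was lower in 2 other lightgreen genes and in 121 genes of the whole network. None of the lightgreen genes (0 of 298) had lightgreen as the module with most of its edges. Turquoise was the leading module for 234 of them and brown for 39, the IDD gene included. Such counts depend on module size, because a gene of a small module can have only few edges within it. Of all pairs of lightgreen genes, 47.6% were listed as edges.

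The MYB gene had 6808 edges, to 26.9% of the network, and ranked 2109 of 25298 genes by this number. Its weights ranged from 0.0200 to 0.177 with a median of 0.0441 (quartiles 0.0307 and 0.0644). The MYB gene was thus the more connected of the pair, with heavier as well as more numerous edges. Only 5 edges (0.0734%) went to other pink genes, or 0.381% of them. Pink, a larger module than lightgreen, had a median share of 24.1% within the module (range 0.0661% to 66.9%). It was the leading module for 462 of its genes, and 85.3% of all pairs of pink genes were listed as edges. A lower share was found in 2 other pink genes and in 42 genes of the network.

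**Figure D1:**
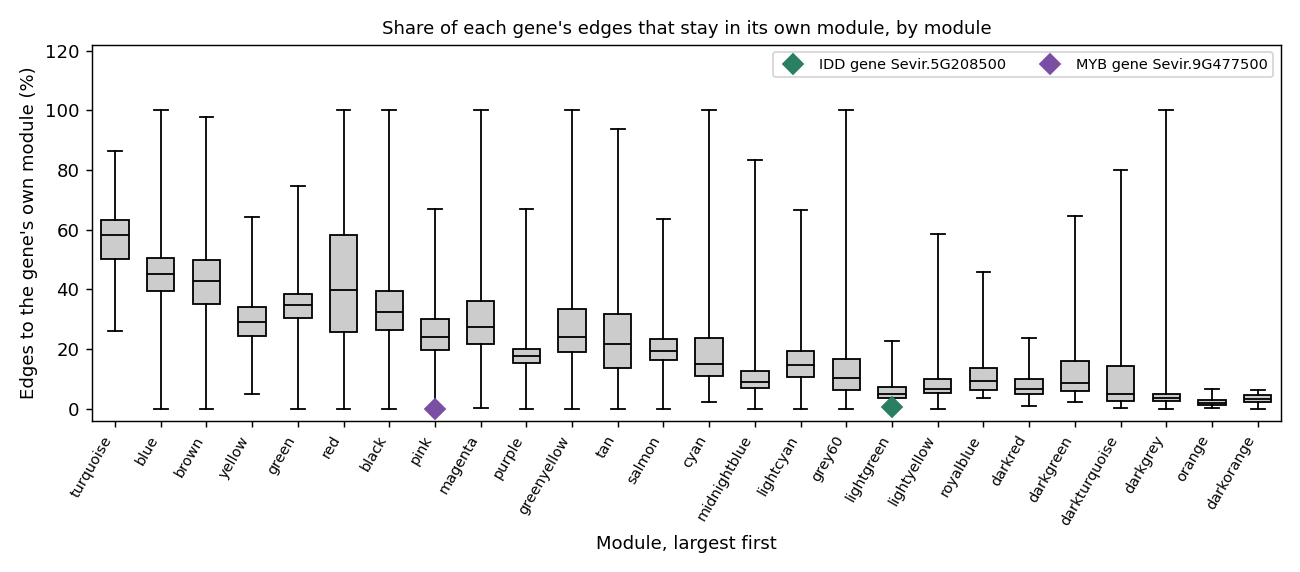
Share of each gene's edges (percent, vertical axis) that lead to genes of its own module, for the 26 modules from largest to smallest. Boxes show quartiles with the median as a line, whiskers reach the lowest and highest gene, and diamonds mark the IDD gene in lightgreen (0.677%, module median 4.86%) and the MYB gene in pink (0.0734%, module median 24.1%), the values on which both genes were chosen.

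By number, the edges of the IDD gene led first to brown, and by density they led to tan. Brown held 1270 of its 3102 edges (40.9%), although brown makes up 9.53% of the network genes. Tan held 646 edges (20.8%) and makes up 3.15% of the genes. These edges reached 81.0% of all tan genes but 52.7% of all brown genes. A small module, darkgrey, was covered as densely as tan, with edges to 73 of 91 genes (80.2%), and royalblue nearly as densely as brown, with 100 of 195 (51.3%).

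Blue, black and cyan were covered above the 12.3% of the whole network, and turquoise was not. Blue held 354 (13.3% of blue genes), black 257 (18.2%), cyan 178 (28.7%) and turquoise, the largest module, 101 (2.58%). In all, 21 modules were reached, and yellow, green, darkred, darkgreen and orange were not. There were 2 edges to magenta and 1 to pink, the module of the MYB gene.

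The tan edges were also the heavier ones. Their median weight was 0.0451, against 0.0362 for brown, 0.0308 for blue, 0.0234 for turquoise and 0.0272 for the 21 lightgreen edges. Of the 100 heaviest edges, 61 led to tan and 37 to brown, with 1 each to blue and darkgrey. When the summed weight to tan was set beside that of the 798 tan genes themselves, the IDD gene ranked 69, well within the upper part of that module. Beside the 2411 brown genes its summed weight to brown ranked 1487. Its summed weight thus lay in the upper part of the range of tan genes and below the middle of that of brown genes, although its label was lightgreen.

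The edges of the MYB gene led above all to turquoise, the largest module. Turquoise held 3640 of its 6808 edges (53.5%) and makes up 15.5% of the network genes, and these edges reached 93.1% of all turquoise genes. Brown followed with 1037 edges (43.0% of its genes), yellow with 748 (37.4%) and cyan with 425 (68.4%). The MYB gene was joined to 167 of the 298 lightgreen genes (56.0%), the module of the IDD gene, but the IDD gene was not among them. It also reached midnightblue (184 edges), tan (180), grey60 (150), lightcyan (105) and red (88). It had 12 edges to blue and none to magenta, darkgreen, darkred, darkturquoise or orange.

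By median weight, cyan came before brown, although brown held more of the summed weight (12.3% against 5.78%). The median weight to turquoise was 0.0538, above cyan (0.0456), brown (0.0375) and yellow (0.0314). Higher medians were found where edges were few, in blue (12 edges, 0.0652), darkorange (4 edges, 0.0772) and pink itself (5 edges, 0.0910). Of the 100 heaviest edges, 97 led to turquoise, 2 to brown and 1 to lightyellow. The summed weight to turquoise ranked 1709 beside the 3909 turquoise genes, slightly above the middle of that module. The summed weight to cyan ranked 310 beside the 621 cyan genes, also near the middle.

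**Figure D2:**
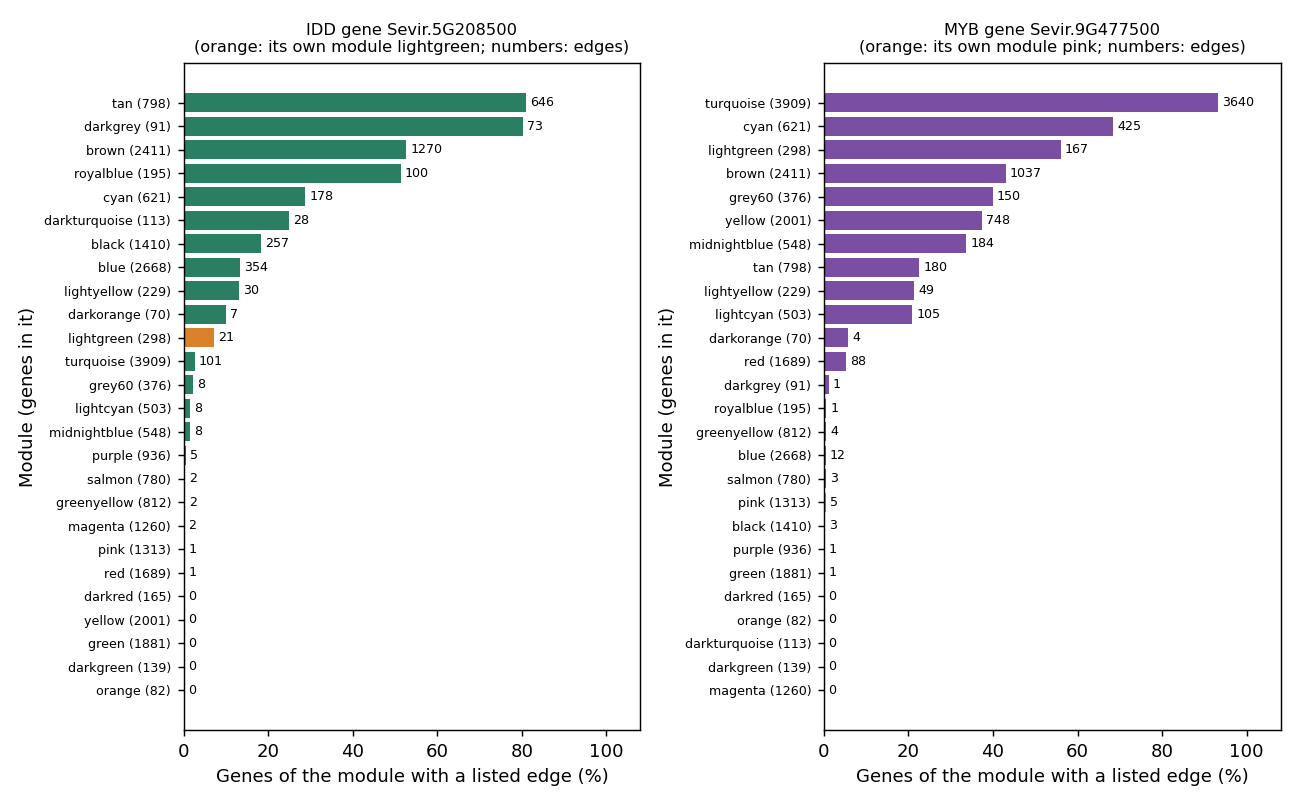
Percentage of the genes of each module (horizontal axis) that have a listed edge to the IDD gene (left) and to the MYB gene (right). The number of genes stands beside each module name and the number of edges beside each bar; tan (81.0%) and darkgrey (80.2%) are covered most densely by the IDD gene and turquoise (93.1%) by the MYB gene, and the orange bar is the gene's own module.

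**Figure D3:**
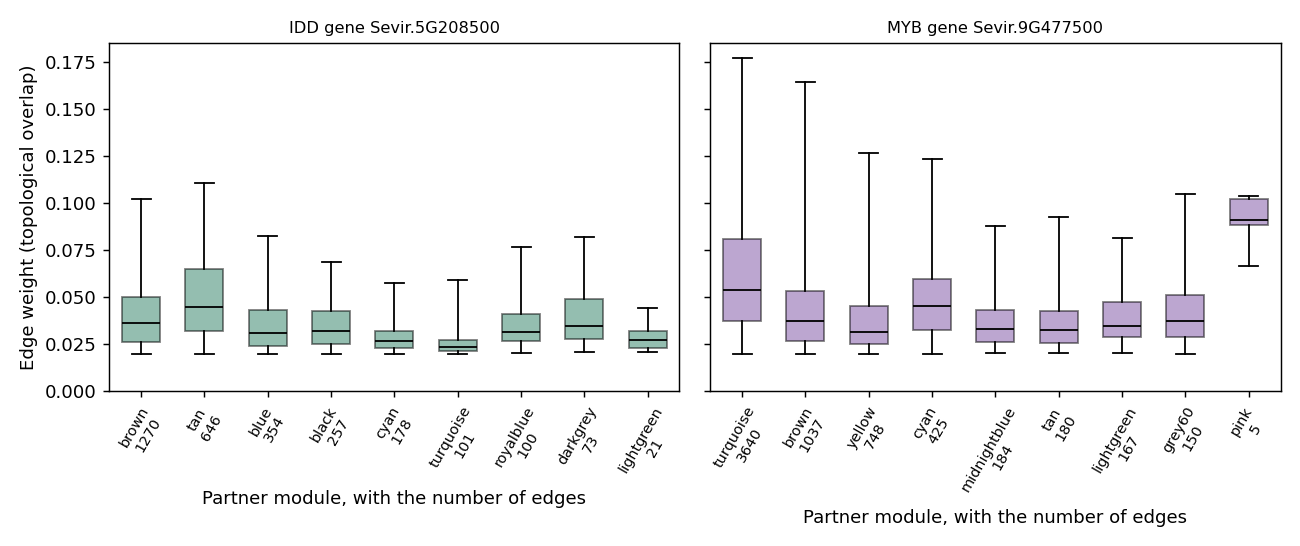
Edge weight (topological overlap, vertical axis) by partner module for the IDD gene (left) and the MYB gene (right), for the 8 modules with most edges and the own module. Boxes show quartiles and median and whiskers the full range; the tan edges of the IDD gene have the highest median there (0.0451), and the 5 pink edges of the MYB gene lie above the turquoise median (0.0538).

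The few edges within the own module differed between the genes. The 21 lightgreen partners of the IDD gene had weights of 0.0210 to 0.0445, so that the heaviest of them ranked 965 among the 3102 edges. This was Sevir.2G252800, which carries a Dof-type zinc finger signature, a plant transcription factor domain. Next came Sevir.2G450400 at 0.0386 and Sevir.3G089200 at 0.0376. Of the 231 possible pairs among the IDD gene and these partners, 188 were listed, at 0.0208 to 0.119. The 21 edges of the IDD gene are among them by definition, and partners of a gene are more likely to be joined by construction. Of all pairs of lightgreen genes, 47.6% were listed. Most of the partners faced turquoise: 13 had it as their leading module, 7 had brown and 1 had cyan. The IDD gene, which had 101 turquoise edges of 3102, shared its label with genes that mostly led elsewhere.

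The 5 pink partners of the MYB gene were of a different kind. Their weights were 0.104 for Sevir.9G392200, 0.102 for Sevir.7G255300, 0.0910 for Sevir.5G248600, 0.0883 for Sevir.4G252700 and 0.0667 for Sevir.9G002100. The MYB gene and these 5 genes formed a closed group in which all 15 possible pairs were listed, at 0.0423 to 0.109. The 5 pairs with the MYB gene are listed by definition, and 85.3% of all pairs of pink genes were listed. Each of the 6 had exactly 5 pink edges, those to the other members of the group. Each led to turquoise instead, and they were the only 6 of the 1313 pink genes for which turquoise was the leading module. The closest Arabidopsis genes were AT2G02370 for Sevir.9G392200, AT3G10572 for Sevir.4G252700 and AT5G43310 for Sevir.9G002100. Sevir.5G248600 was the only gene of the 5 that was assigned the term for DNA-binding transcription factor activity. Its only domain signature, however, was that of a transmembrane protein family and not a DNA-binding domain. The term alone therefore does not establish that it is a transcription factor.

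The 10 partners of highest weight are those with the highest topological overlap with the IDD gene, which is not a direct measure of similar expression. Of these, 6 were tan and 4 were brown. The heaviest edge, at 0.111, led to Sevir.1G111300, which no source used here names. At 0.110 followed Sevir.5G324700, with an auxin response factor domain, the DNA-binding regulators that carry auxin signals to target genes. The closest Arabidopsis gene of Sevir.3G072400 (brown, 0.102) was AT1G48410, ARGONAUTE1, the slicer of small RNA silencing. That of Sevir.1G315800 (brown, 0.0995) was AT1G23230, a subunit of the Mediator complex that links transcription factors to RNA polymerase II.

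A gene with chromatin remodelling signatures and a homeobox gene were also among these 10 partners. Sevir.9G541900 (brown, 0.0992) has the signature of an AAA-type ATPase, and Sevir.2G237601 (brown, 0.0986) those of an SNF2-type chromatin remodelling ATPase. Sevir.6G032100 (tan, 0.0992) has no name in the annotation. The closest Arabidopsis gene of Sevir.7G193500 (tan, 0.0985) was AT1G77270, for which no name was given. Sevir.1G309300 (tan, 0.0982) was closest to AT5G60850, a Dof zinc finger gene of Arabidopsis. Sevir.2G029800 (tan, 0.0977) has the KNOX domain and was closest to AT4G08150, the Arabidopsis homeobox gene KNAT1, which acts in meristems and stems. Of these 10 partners, 9 had more edges to brown than to any other module, among them 5 of the 6 tan genes.

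The 10 partners of highest weight to the MYB gene were different genes with far more edges. All 10 had turquoise as their leading module, and 8 of them were labelled turquoise. They had between 8353 and 9120 edges, where the gene with most edges in the network had 9327. The heaviest edge, at 0.177, led to Sevir.6G171900, with a helix-loop-helix domain, a dimerizing DNA-binding fold. Sevir.8G174100 (0.173) has the G domain of membrane-shaping GTPases, and Sevir.8G115200 (0.166) a heavy-metal-associated domain and AT1G66240, a copper chaperone, as its closest Arabidopsis gene.

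A transporter and a channel were among the closest Arabidopsis genes of the other partners. Sevir.5G430300 (0.160) was closest to AT1G69870, a nitrate transporter of Arabidopsis, and Sevir.1G343000 (lightyellow, 0.161) to AT3G17700, a cyclic nucleotide-gated channel. Sevir.1G231400 (0.163) has a C2H2 zinc finger. Sevir.8G255700 (0.167), Sevir.2G192600 (brown, 0.164), Sevir.4G069000 (0.162) and Sevir.5G313800 (0.162) have no name in the annotation used.

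Likeness was measured as the share of partners that a gene has in common with each of the pair out of the partners of either. This measure was added after the weights had been seen. For the IDD gene the closest was Sevir.5G109800 (tan), with 2844 partners in common, 80.9% of the union. It has an acyl-CoA dehydrogenase signature. Sevir.1G111300 followed at 79.3%, and Sevir.6G166800 (tan), closest to the Arabidopsis zinc finger homeodomain gene AT1G69600, at 79.1%. For the MYB gene the closest was Sevir.5G408800 (turquoise), with 6703 partners in common (93.4%), whose closest Arabidopsis gene, AT1G21450, is a GRAS-family regulator. Its edge to the MYB gene, at 0.104, ranked only 518. Among the 100 genes most alike by this measure, 73 were tan for the IDD gene and 79 were turquoise for the MYB gene. The lists of 100 by weight and by shared partners had 38 genes in common for the IDD gene and 0 for the MYB gene.

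No edge was listed between the IDD gene and the MYB gene, so their topological overlap was below the lowest listed weight. They had 992 partners in common, 32.0% of those of the IDD gene and 14.6% of those of the MYB gene. Brown held 525 of these, tan 166, cyan 154 and turquoise 93. Of the 180 tan partners of the MYB gene, 92.2% were also partners of the IDD gene, and of the 101 turquoise partners of the IDD gene, 92.1% were also partners of the MYB gene. Within brown the overlap was 41.3% of the IDD partners and 50.6% of the MYB partners.

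Shared partners were ranked by the weaker of their weights to the IDD and the MYB gene. By this measure the first was Sevir.3G218600 (brown), named UPL4 in the study's annotation after an Arabidopsis ubiquitin ligase, at 0.0649 to the IDD gene and 0.0719 to the MYB gene. Sevir.8G016400 (brown) had 0.0617 and 0.0578. Sevir.3G299800 (brown) and Sevir.9G028400 (cyan), both with protein kinase domains, had 0.0576 and 0.0678, and 0.0575 and 0.0756. No gene was found both in the heaviest 10% of the edges of the IDD gene and in that of the MYB gene.

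Partners of the same gene in different modules were also joined to each other. Of all pairs of a brown and a tan gene, 17.3% were listed as edges. Among pairs of a brown and a tan partner of the IDD gene it was 32.7%, and among pairs of brown and tan genes that were not its partners 2.37%. For brown and blue these shares were 8.67%, 50.1% and 1.42%. For the MYB gene, turquoise and brown had 20.6% of all pairs listed, 43.6% among partners and 2.19% among other genes. Turquoise and cyan had 33.3%, 47.7% and 0.277%. Brown and yellow, which were seldom joined (2.15% of all pairs), had 10.4% among partners of the MYB gene. Because the topological overlap counts shared neighbours, partners of a gene are more likely to be joined by construction, and these shares describe the position of each gene only.

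Of 26 regulators and other genes that the study names by identifier, the IDD gene had a listed edge to 8, the MYB gene to 8, and both to 4. Each had edges to 30.8% of the list, where the IDD gene was joined to 12.3% and the MYB gene to 26.9% of all network genes, so that the count of the MYB gene lay near its share of the network. The heaviest edge of the IDD gene in this list was to *SvKn1* (tan), the KNOX gene that maintains meristems in maize as KNOTTED1, at 0.0942. It exceeded 99.5% of the edges of the IDD gene and 94.7% of those of *SvKn1*. The edge to *SvFea4* (tan), the counterpart of a bZIP gene that limits meristem size in maize, was 0.0791 and exceeded 97.0% of the edges of the IDD gene. The edge to *SvRa2* (tan), the counterpart of the maize LOB-domain gene RAMOSA2 that restricts branching, was 0.0765 and exceeded 96.1%. All 3 tan genes in the list were thus among its heavy edges. The IDD gene was joined to 81.0% of all tan genes, however, and tan held 61 of its 100 heaviest edges. These 3 were put here into a group of 6 meristem genes with *SvIds1*, *SvSid1* and the bHLH gene Sevir.2G248500. The study did not make this grouping, and it gives the function of the bHLH gene as unknown. The other 3, *SvIds1*, *SvSid1* and the bHLH gene, had no listed edge to the IDD gene. They are magenta genes, and the IDD gene was joined to 0.159% of that module.

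MADS-box genes, which encode the regulators of flowering and floral organs, came lower for the IDD gene. The edge to *SvMads34* (cyan) was 0.0512 and that to *SvFul2* (brown), the gene mutated in this study, 0.0484, above 77.5% and 73.9% of its edges. Those to *SvMads56* (0.0230) and *SvFul3* (0.0201) lay near the lowest listed weight, as did the edge to the bZIP gene Sevir.3G396500 (0.0201). The IDD gene had no listed edge to *SvFtl1*, *SvFd1*, *SvZcn2* or *SvMtf1*, or to the 4 organ polarity genes of the list.

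For the MYB gene the heaviest edges in the list were to MADS-box genes, of which 5 of the 9 named had a listed edge. The edge to *SvMads34* was 0.0782, above 83.4% of its edges, and those to *SvMads37.1* (turquoise) and *SvFul3* (brown) were 0.0679 and 0.0677. From the side of *SvFul3* the edge was heavy and exceeded 97.6% of the edges of that gene. Among MADS-box genes, *SvMads56* followed at 0.0562 and *SvMads5* (turquoise) at 0.0394, the latter below the median of all edges of the MYB gene (0.0441). The edge to *SvFtl1*, a gene of the FLOWERING LOCUS T type, was 0.0622, and that to *SvMtf1*, a gene of the MOTHER OF FT AND TFL1 type, was 0.0514. Both are turquoise genes, like *SvMads37.1* and *SvMads5*, and of that module the MYB gene was joined to 93.1% and the IDD gene to 2.58%. The MYB gene was also joined to 68.4% of cyan, the module of *SvMads34* and *SvMads56*, and to 43.0% of brown, the module of *SvFul3*.

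The MYB gene had no listed edge to *SvFul2*, *SvFea4* or *SvRa2*, and only a light one to *SvKn1* (0.0214, above 3.75% of its edges). Neither gene had an edge to *SvFul1*, *SvFd1*, *SvZcn2*, which is pink like the MYB gene, *SvD3* or the PPDK gene, or to the named magenta genes *SvFul4*, *SvMads51*, *SvIds1*, *SvSid1*, *SvYab15* and the bHLH gene Sevir.2G248500. Of the other organ polarity genes, *SvMwp1*, *SvRoc5* and *SvPhb* had none either. The list was picked by the study and does not represent all regulators.

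**Figure D4:**
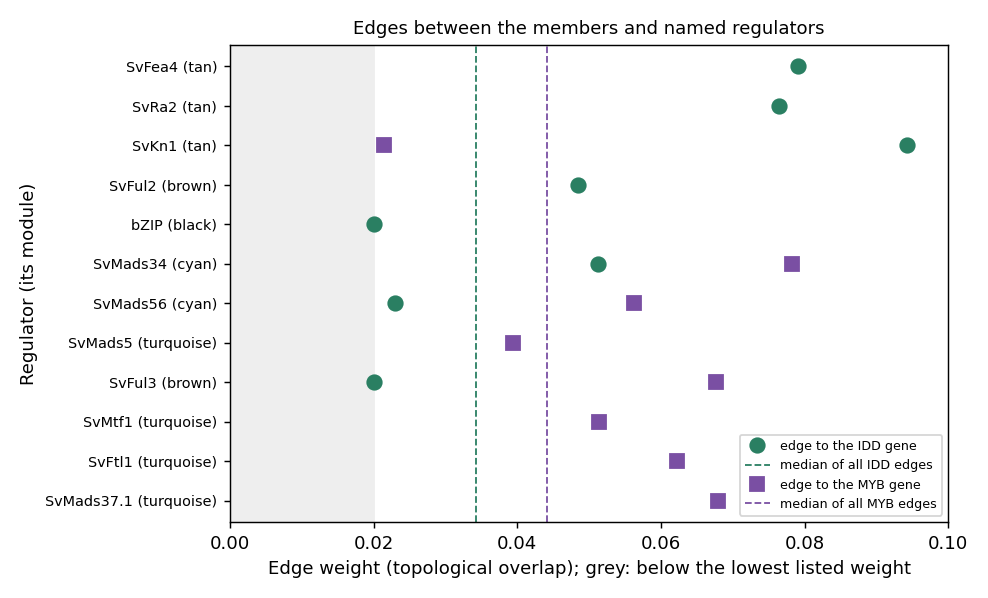
Edge weight (topological overlap, horizontal axis) between the IDD gene (circles) or the MYB gene (squares) and the 12 named regulators with a listed edge to either; the module stands in brackets. Dashed lines are the medians of all edges of each gene (0.0343 and 0.0441) and the grey band is the range below the lowest listed weight; the 3 tan regulators *SvKn1*, *SvFea4* and *SvRa2* lie at 0.0765 to 0.0942 for the IDD gene.

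All network genes have at least 1 GO term in the deposited annotation, so every partner could be counted. Terms were put into 20 groups, and the share of partners with a term of a group was set beside that of the other network genes. No test was made, since genes of a module are not independent. Among partners of the IDD gene, the floral organ, meristem and chromatin groups stood highest relative to other genes, with ratios of 2.56, 2.56 and 2.50. Terms for flower and floral organ formation were carried by 117 partners (3.77%, other genes 1.47%), and terms for meristems by 113 (3.64%, others 1.42%). Flowering time terms were carried by 227 (7.32%, others 3.72%), a lower ratio of 1.97.

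Nuclear functions were also more frequent among these partners. Chromatin terms were carried by 162 partners of the IDD gene (5.22%, others 2.09%), cell cycle and cell division terms by 219 (7.06%, others 3.97%) and transcription factor activity by 175 (5.64%, others 3.46%). Among hormones, gibberellin (1.87% and 0.996%) and auxin (4.42% and 2.54%) were more frequent, while cytokinin was slightly less frequent (0.935% and 1.13%). Photosynthesis was the least frequent group relative to other genes, at 0.806% of partners and 2.28% of others. In all, 17 of the 20 groups were more frequent among the partners, with a median ratio of 1.55. With the module held fixed, the count was 16 of 20 in brown and in blue and 14 of 20 in black, but 9 of 18 in tan (median ratio 0.990), 9 of 20 in cyan (0.965) and 10 of 20 in turquoise (0.876). Partners of the IDD gene also carried more terms of any kind, with a median of 12 against 10 in other genes, and the part of this difference in the shares was not tested.

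The groups stood the other way for the MYB gene. In 19 of 20 groups the share among its 6808 partners was below that of other genes, with a median ratio of 0.772. This count depended on the modules: among partners outside turquoise 10 of 20 groups were more frequent than in other genes (median ratio 0.954). Within turquoise it was 11 of 18 (1.29) and within cyan 12 of 20 (1.19), but 4 of 20 within brown (0.814) and 6 of 20 within yellow (0.780). Over all partners only vesicle transport was more frequent, with 159 partners (2.34%, others 1.82%). The lowest ratios were those of RNA splicing (0.881% and 2.27%), starch and trehalose (0.705% and 1.58%) and photosynthesis (1.12% and 2.46%). Flowering time terms were carried by 182 partners (2.67%, others 4.71%). Partners of the MYB gene carried fewer terms, with a median of 10 against 11, and the part of this in the shares was not tested either.

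**Figure D5:**
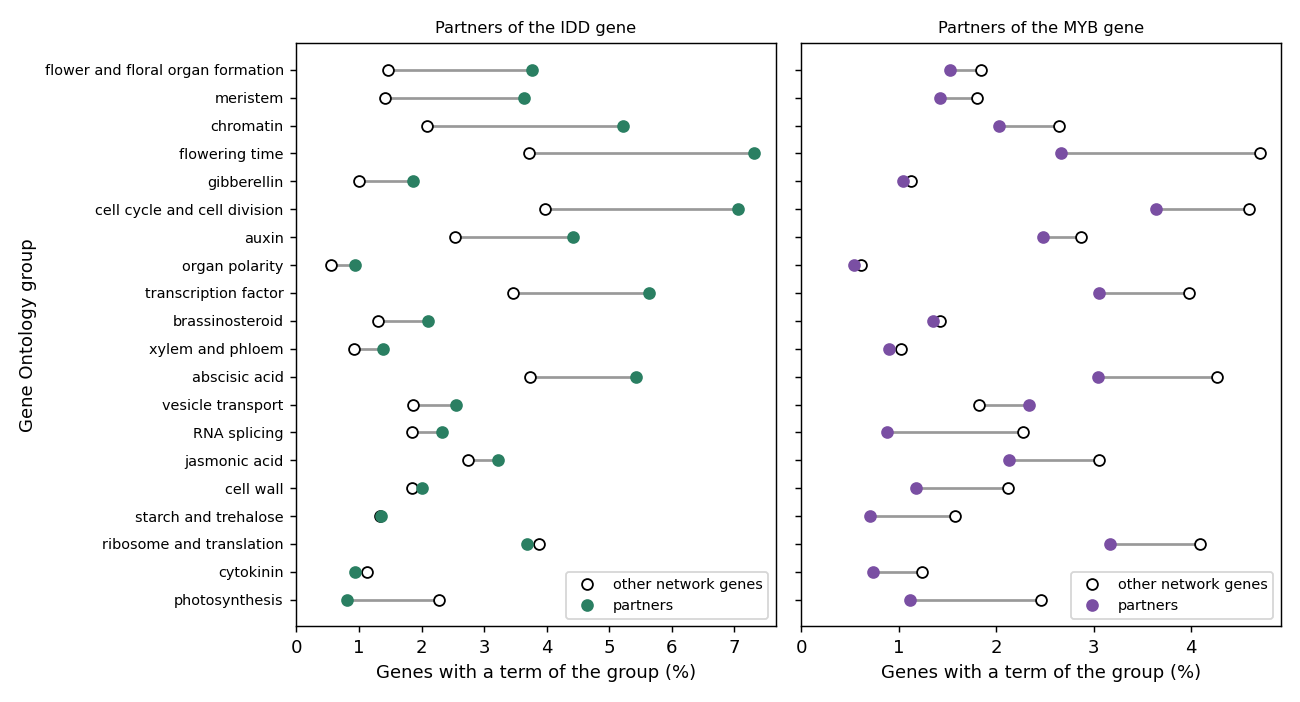
Percentage of genes with a term of each of 20 GO groups (horizontal axis) among partners (filled circles) and other network genes (open circles), for the IDD gene (left, 3102 partners) and the MYB gene (right, 6808 partners). Partners lie to the right of the other genes in 17 groups for the IDD gene and in 1 group, vesicle transport, for the MYB gene.

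The IDD partners were next compared with other genes of the same module, so that the module itself was held fixed. Among brown genes, flowering time terms were carried by 8.19% of the 1270 partners and 3.68% of the 1141 other genes, chromatin terms by 5.35% and 2.28%, and cell cycle terms by 8.03% and 4.03%. Brown partners differed little in transcription factors (2.91% and 2.37%). Among tan genes, auxin terms were carried by 6.04% of the 646 partners and 1.32% of the 152 others. Transcription factor activity was carried by 8.82% and 4.61%, and organ polarity terms by 16 partners and none of the others. The tan comparison was limited by the small number of other genes. Their auxin and transcription factor shares rest on 2 and 7 genes. Flowering time (6.50% and 7.24%) and chromatin (4.95% and 6.58%) were not more frequent among tan partners. Of these 3 modules, blue had the largest chromatin share among partners, with 9.60% of 354 against 3.28% of 2314, and 6.50% with meristem terms against 2.33%.

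For the MYB gene, the comparison within turquoise was limited by the small number of turquoise genes without an edge, 269. Flowering time terms were carried by 62 of 3640 turquoise partners (1.70%) and by 0 of the others, and cell cycle terms by 2.58% and 1.12%. Within brown, flowering time terms were carried by 4.73% of the 1037 partners and 7.06% of the 1374 other genes. Brown partners of the IDD gene and of the MYB gene thus lay on opposite sides of the other brown genes for this group, although 525 brown genes were partners of both. Within cyan, auxin terms were carried by 17 of 425 partners and 3 of 196 others.

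Single biological-process terms were ranked by the same ratio among the 340 terms with at least 20 partners of the IDD gene, and the 10 highest are extremes by selection. The first was primary shoot apical meristem specification, with 28 partners (0.903%, others 0.126%). Embryonic pattern specification (23 partners, ratio 5.88) and meristem maintenance (33, ratio 5.76) belong to the same subject, and these 3 terms covered 57 different partners, 22 of them brown, 13 tan and 11 blue. A second subject was RNA silencing. Production of trans-acting siRNAs (59 partners, ratio 6.60), virus-induced gene silencing (58, ratio 5.93), RNA interference (24, ratio 5.37) and methylation-dependent chromatin silencing (63, ratio 5.12) covered 102 different partners (3.29%, others 0.730%), of which 46 were brown and 25 blue. The other 3 terms were protein N-linked glycosylation (52, ratio 5.81), vegetative phase change (34, ratio 4.59) and gravitropism (60, ratio 4.57).

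The highest terms of the MYB gene had lower ratios and no shared subject. Of 479 terms with at least 20 partners, cellular homeostasis came first (20 partners, ratio 3.62), followed by regulation of programmed cell death (32, ratio 2.90) and phosphatidylinositol biosynthesis (50, ratio 2.61). Vacuole organization (33, ratio 1.95) and potassium ion transmembrane transport (30, ratio 2.04) were also among the 10, as were regulation of signal transduction (71, ratio 2.10) and positive regulation of RNA metabolism (21, ratio 2.59) and of biosynthesis (27, ratio 2.22). The last were generation of neurons (20, ratio 2.17) and chemical synaptic transmission (21, ratio 2.11), which name animal processes and were transferred to plant genes by the annotation pipeline. The silencing terms named above for the IDD gene were carried by 56 partners of the MYB gene (0.823%), and the 3 meristem and pattern terms by 35 (0.514%).

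Among partners with the term for DNA-binding transcription factor activity, the 12 of highest weight to the IDD gene were all tan. KNOX homeobox genes among them were Sevir.2G029800 (0.0977), *SvKn1* (0.0942) and Sevir.6G118400 (0.0795), whose closest Arabidopsis gene is AT5G25220, KNAT3. There were also Sevir.3G196400 (0.0934), with an AP2 domain, Sevir.6G166800 (0.0930), and Sevir.7G115700 (0.0804), an auxin response factor closest to AT1G59750, ARF1 of Arabidopsis. Genes with the Dof domain were Sevir.1G309300 (0.0982) and Sevir.7G214100 (0.0803). By module, 57 of the 175 transcription factor partners were tan, 37 brown, and 19 each blue and royalblue. Of 27 other network genes with the same C2H2 evidence, Sevir.5G272800 (brown, 0.0492) and Sevir.2G209800 (cyan, 0.0225) had an edge to the IDD gene, 7.41% where it was joined to 12.3% of all network genes.

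Of the 208 transcription factor partners of the MYB gene, 93 were turquoise and 33 cyan. The heaviest was Sevir.9G565033 (0.138), with a MADS domain, and a second MADS-box gene with a K-box, Sevir.5G034800, had 0.104. A KNOX signature, as in *SvKn1*, was also found here, in Sevir.9G140700 (0.103). Sevir.9G138100 (0.115) has the homeobox domain seen in Sevir.2G029800, and Sevir.9G508000 (0.130) a homeobox signature. Sevir.9G128500 (0.125) was closest to AT5G12840, an NF-YA subunit of the CCAAT-binding factor, and Sevir.9G433200 (0.0984) to AT4G02020, SWINGER, a histone methyltransferase of the Polycomb complex in Arabidopsis. These edges ranked between 97 and 618 among the 6808, so that none of the heaviest partners of the MYB gene described above carried this term. Of the 111 other network genes with the homeodomain-like evidence, 19 (17.1%) were partners of the MYB gene, which is below the 26.9% of all network genes it was joined to.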

How the data were processed

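The deposited edges and nodes of the co-expression network and the GO annotation were used, all without values of individual samples (0 columns of that kind). The authors quantified poly-A RNA-seq reads with Salmon 0.13.0 on primary transcripts, removed 1 wild-type replicate at 8 DAS and 1 at 17 DAS, transformed the counts, and built a signed WGCNA network. Edge weights were deposited as topological overlap, a score without replicate error, and lighter pairs were left out by the authors. Module colours and GOMAP terms are deposited text values, and 678 assignments marked NOT were left out. The genes and lists were chosen with earlier results of these data known, and no test was made.

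Edges were counted by partner module. Named genes are the 10 heaviest partners, the 3 heaviest in the own module (5 for the MYB gene, all it has), and genes the study names by identifier. The 10 GO terms of highest ratio carried by at least 20 partners were also named. Partners given under the other measures (shared partners, transcription factors) were chosen after their values were seen. Counting was tested on simulated data. Depth per sample was not used, and DNA and *ful2* samples were not analysed here. Domain and Arabidopsis best-hit evidence came from the annotation. Alternatives were heavier edges, summed weight, and partners outside the leading module. Python 3.11.15, numpy 2.4.6 and pandas 2.3.3 were used.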

Additional observations from a re-analysis of the deposited data

How the results depend on the processing

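Shares are percentages of edges or partners, with no replicate error, and the alternatives were a doubled minimum (edges with weights 2 times the lowest or more), the 10% heaviest edges, and summed weight. A value was taken to move when it left the exact 95% binomial interval of the reported one. That interval treats the edges or partners of a gene as independent draws, which they are not. Its width follows their number, so the counts of moved values are a yardstick and not a measure of stability. The share of IDD edges to lightgreen fell to 0.0833% at the doubled minimum and to 0 among the 10% heaviest, while for the MYB gene the share to pink was 0.294% among the 10% heaviest. The share of IDD edges to brown became 45.4% at the doubled minimum. The share to tan, an alternative added after the data were seen, became 31.6% at the doubled minimum, 53.4% among the 10% heaviest and 25.9% of summed weight, so that tan and not brown (39.2%) led among the heaviest edges. The share of MYB edges to turquoise became 66.1%, 94.0% and 63.7% under the same 3 settings. The partners in common became 113 at the doubled minimum, 9.41% for the IDD gene and 2.90% for the MYB gene, and 0 among the 10% heaviest. Of 60 GO group shares recomputed for each gene, 28 moved for the IDD gene and 31 for the MYB gene, and 8 and 10 crossed to the other side of the share in other genes. For partners of the MYB gene outside turquoise these included flower (2.08%, others 1.85%), meristem (1.93%, others 1.81%) and auxin (3.22%, others 2.88%). The other IDD and MYB family genes were not grouped, since the reference used here pairs no description with these loci. No paired analysis was possible because replicate values are absent from a network pooled over all samples.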
